A study of Mus musculus with 302 samples.

Results

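Cyp17a1 and As3mt lie beside each other on mouse chromosome 19, and their levels moved together across 302 livers. They were chosen by their measured spread, by the way their values fall into groups of livers and by their correlation with each other, as 2 of 10815 named genes on these arrays, so all of these are given as a description with no test. Each gene is read by 1 probe (mouse gene identifiers 13074 for Cyp17a1 and 57344 for As3mt). In the gene order of GRCm38.p6, 3 further loci lie between them, the lncRNA Gm41857, the pseudogene Gm6967 and the protein-coding gene Borcs7. None of these 3 has a probe under its name, so the pair is adjacent among the genes measured. Every liver came from an F2 mouse of a cross between 2 inbred strains, C57BL/6J and C3H/HeJ, set up in both directions, and the labels give 1 group with no sex, direction of cross or genotype for any single mouse. All mice ate chow of 4% fat to week 8 and a Western diet of 42% fat and 0.15% cholesterol for the next 12 weeks, and were killed at 20 weeks of age after 12 h without food. There was no group on chow alone and no parental strain, so diet and strain are not compared. Values are log10 ratios of a liver (Cy3) to a pool of all the livers' RNA (Cy5): the base and the direction are the likely reading of the deposited table, not a stated one. Because the reference is a pool of the same livers, a value of 0 is the average liver, and neither the tissue label nor any cell type can be checked by presence or absence of a marker.

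Cyp17a1 encodes the steroid 17-hydroxylase and lyase of the endoplasmic reticulum, which turns progesterone and pregnenolone into precursors of androgens. It is best known in the testis and ovary, and rodent liver also makes its transcript. As3mt encodes the arsenite methyltransferase of the cytosol, which moves methyl groups from S-adenosylmethionine to trivalent arsenic and is abundant in liver. The substrates of the enzymes are unrelated, and the genes are known to share a chromosomal neighbourhood.

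The sequence before the start of As3mt is shown because it is the upstream DNA of the pair that a reference table holds. It is RefSeq's (GRCm38.p6, chr19:46707208-46707457, plus strand), 250 bases ending at the base before the annotated start, with a GC content of 49.6% and 4 CG pairs. Capitals mark the CCAAT box.

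As3mt: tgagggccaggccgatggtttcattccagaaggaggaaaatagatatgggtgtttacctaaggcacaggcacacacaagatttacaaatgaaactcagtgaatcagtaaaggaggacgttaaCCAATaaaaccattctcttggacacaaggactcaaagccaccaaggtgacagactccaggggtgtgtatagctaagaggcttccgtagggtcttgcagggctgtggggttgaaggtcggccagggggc

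The search covered both strands, and CCAAT was found once, 128 bases before the start, as it is at least once in 33.8% of the 32851 mouse promoters of the same length. A search was also made for the GC box GGGCGG, held by 32.7% of promoters, and for TATAAA, held by 12.4%. The nuclear receptor motif AGGTCA is held by 14%, the E-box CACGTG by 6.02%, and TGACNNNGC, the core of the antioxidant response element, by 10.2%. The letters of these other motifs are not in this window, so CCAAT is the only match in it.

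The livers fall into 4 blocks that were removed before any relation was measured. The Y-linked gene Eif2s3y parts them at -0.8, with no liver between -0.968 and -0.437, into 142 low-marker and 160 high-marker livers. The number in the title, up to 212 or above it, parts them again, and this gives 77 low-marker and 82 high-marker livers with early numbers, and 65 and 78 with late ones. What the number stands for is not given in the labels. Array medians lay between -0.0117 and 0.0174 and array SDs, taken over probes, between 0.0696 and 0.258, and 1035 of 45451 pairs of arrays correlated below -0.3, the lowest at -0.519. All arrays have 1 dye orientation, so the direction was kept. Within blocks the level of Cyp17a1 correlated with the title number at r = -0.00855, with the array's SD at -0.0634 and with the first principal component of all probes (11.4% of variance) at 0.00472 in size. The same values for As3mt were 0.0152, -0.0362 and 0.0694.

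Cyp17a1 was among the most variable liver transcripts. Its lowest value over the 302 livers was -1.23, its median -0.392 and its highest 0.652. With block means removed 49.3% of its variance remained. The median was 0.157 in the 142 low-marker livers and -0.654 in the 160 high-marker livers, a 6.46-fold difference of medians. The ranges overlapped, from -0.879 to 0.652 in the low-marker livers and from -1.23 to 0.180 in the high-marker livers. By block the medians ran from 0.181 (low-marker, early) and 0.142 (low-marker, late) to -0.615 (high-marker, early) and -0.673 (high-marker, late), with SDs of 0.368, 0.400, 0.322 and 0.329. Neighbours in that order within a marker class differed by far less than these SDs, and the step between the marker classes was larger than them. With the block means removed the SD was 0.352, the 37th widest of 10815 named genes and 5.74 times the median over probes, or 2.25-fold for 1 SD. The livers at the 5th and 95th percentile then stood 15.1-fold apart, against 38.1-fold before the blocks were removed. No value of Cyp17a1 or As3mt was missing, and none lay at the ends of the scale at -2 and 2.

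As3mt varied over a narrower range. Its lowest value was -0.674, its median -0.000385 and its highest 0.289. The medians by block were 0.0767 (low-marker, early), 0.0683 (low-marker, late), -0.0866 (high-marker, early) and -0.0851 (high-marker, late), with SDs of 0.103, 0.117, 0.177 and 0.178. The median of low-marker livers was 1.44-fold that of high-marker livers, a step close to the SD within the blocks, and the blocks overlapped widely. Within blocks the SD was 0.149, the 827th widest of the named genes and 2.43 times the median, and the 5th and 95th percentile stood 3.03-fold apart. Cyp17a1 had its wider SD in the low-marker blocks and As3mt in the high-marker blocks.

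**Figure D1:**
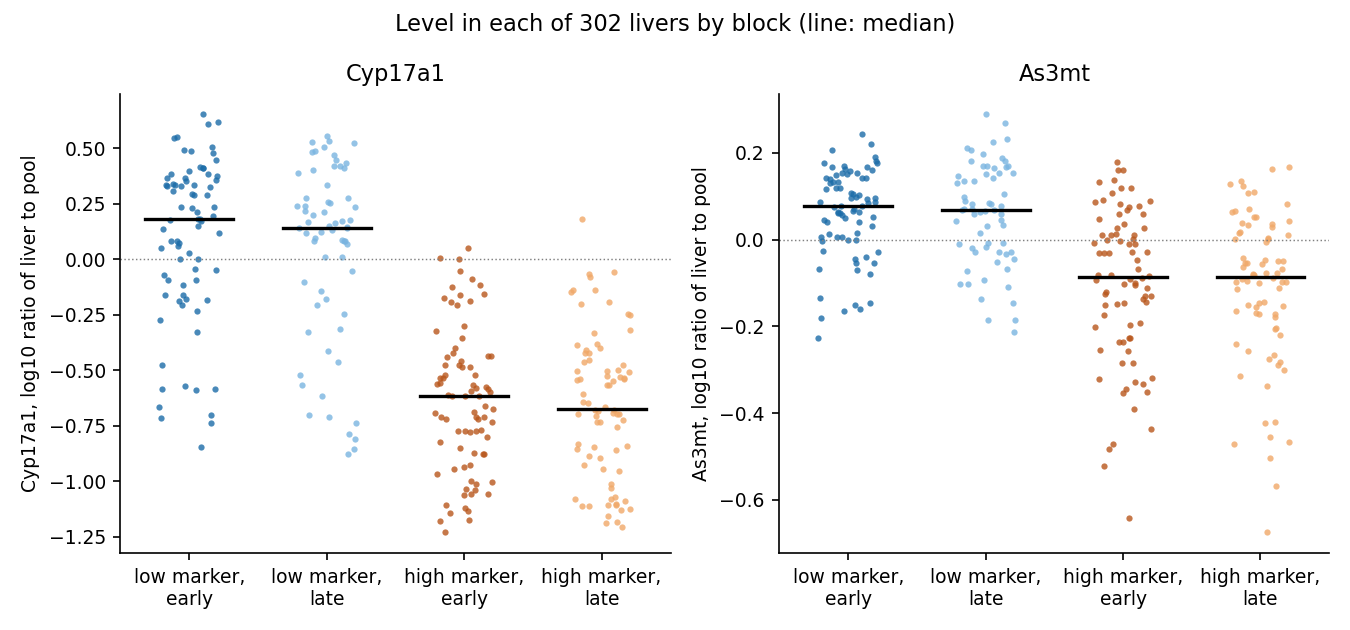
Level of Cyp17a1 (left) and As3mt (right) in each of 302 livers, as log10 ratio to the pool on a linear axis, by block of marker and title number, with the median of each block as a line and the pool at the dotted 0. The Cyp17a1 medians fall from 0.181 and 0.142 in the low-marker blocks to -0.615 and -0.673 in the high-marker blocks, and the As3mt points of the high-marker blocks reach down to -0.674.

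The shape of the distributions was described with mixtures of normal distributions, with no test, and a skewed single peak can also be described better by 2 components than by 1. For Cyp17a1 in the low-marker livers a mixture of 2 components of equal SD described the values better than 1 by 31.3 on the Bayesian information criterion, with means of -0.556 and 0.221, 27 and 115 livers, and 3.58 SDs or 5.99-fold between the means. A mixture of 3 was better than 1 by 32.5, with means of -0.661, -0.121 and 0.300 and 21, 28 and 93 livers, so descriptions with 2 and with 3 components were about equally good. In the high-marker livers 2 components changed the criterion by -6.44, a worse description than 1, and 3 were better by 3.35, with means of -1.02, -0.592 and -0.152 and 50, 83 and 27 livers. For As3mt the lower component was the smaller in both classes: 33 of 142 low-marker livers (improvement 2.76, means -0.0855 and 0.104) and 26 of 160 high-marker livers (improvement 10.1, means -0.388 and -0.0502, 2.81 SDs apart). Genotypes were not used here.

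**Figure D2:**
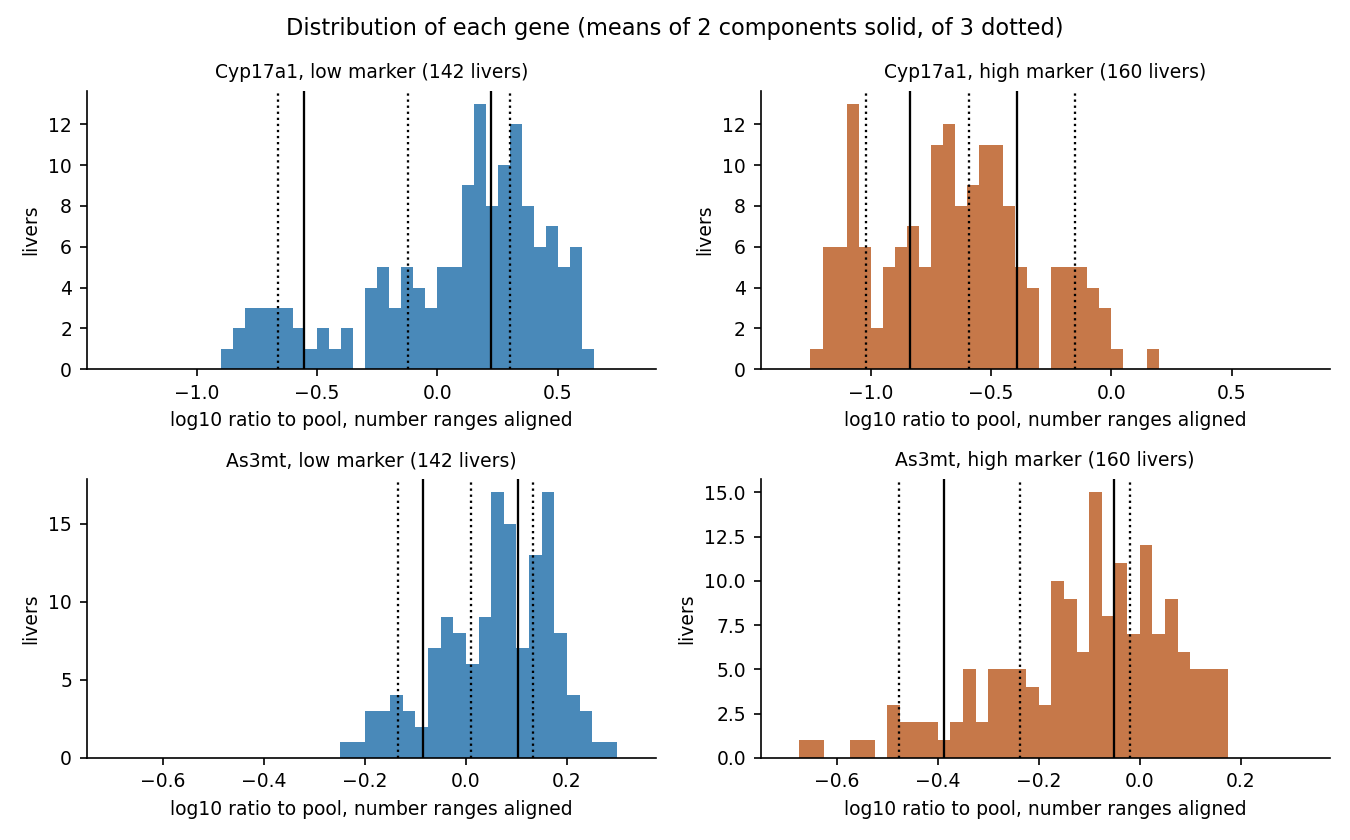
Histograms of Cyp17a1 (top) and As3mt (bottom) in the 142 low-marker (left) and 160 high-marker (right) livers, as log10 ratio to the pool after aligning the early and late title numbers, with the number of livers on the vertical axis. Solid lines are the means of 2 fitted components and dotted lines those of 3. The low-marker Cyp17a1 values have a long lower tail, which 2 components place around -0.556 and 3 place around -0.661 and -0.121, and the 3 component means of the high-marker livers run from -1.02 to -0.152.

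The levels of the pair rose together. With blocks removed Pearson's r was 0.798 and Spearman's rho 0.818 over 302 livers. Within the blocks r was 0.871 (low-marker, early), 0.841 (low-marker, late), 0.822 (high-marker, early) and 0.830 (high-marker, late), and rho lay between 0.801 and 0.873. Without the 2 livers farthest from the median of Cyp17a1 r was 0.8001, and without the 2 farthest in As3mt it was 0.812. The slope of As3mt on Cyp17a1 was 0.244 ± 0.0159 (SE, n = 77) and 0.247 ± 0.01999 (n = 65) in the low-marker blocks, and 0.451 ± 0.0350 (n = 82) and 0.449 ± 0.0345 (n = 78) in the high-marker blocks. A difference in Cyp17a1 went with a smaller one in As3mt in every block. The slopes of the high-marker blocks were the steeper, by several SEs, a difference given as a description with no test. The slopes within a class lay within 1 SE of each other.

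**Figure D3:**
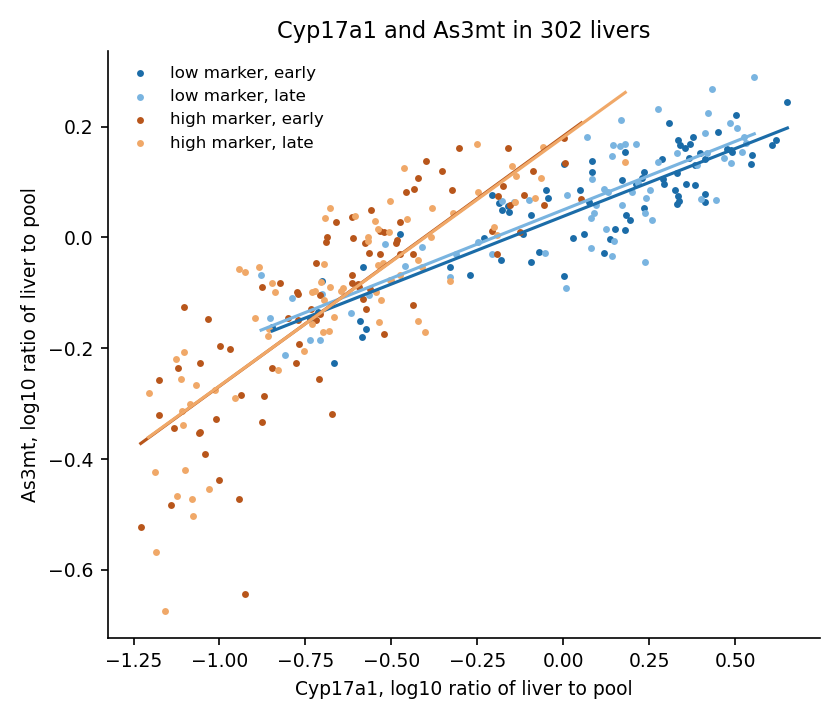
As3mt against Cyp17a1 in 302 livers, both as log10 ratio to the pool, coloured by block, with the least-squares line of each block. The low-marker lines have slopes of 0.244 and 0.247 and the high-marker lines 0.451 and 0.449.

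Other genes that followed the pair were few, and many lay on the same chromosome. Each of 23510 other probes was regressed on the block-centred level of 1 of the pair with limma, 4 block intercepts and a Benjamini-Hochberg adjusted p under 0.05. For Cyp17a1, 24 of 10813 named genes had a positive slope (0.222%) and 28 a negative one (0.259%). For As3mt, 49 had a positive slope (0.453%) and 62 a negative one (0.573%). The smallest correlations that passed were 0.215 and 0.202 in size. On chromosome 19, 29 of 390 genes followed Cyp17a1 (7.44%), against 23 of 10423 on all other chromosomes (0.221%). For As3mt these counts were 34 of 390 (8.72%) and 77 of 10423 (0.739%). The median size of r over the chromosome's genes was 0.0592 for Cyp17a1 and 0.0558 for As3mt, near the 0.0468 and 0.0503 of other chromosomes, so most genes of chromosome 19 did not stand apart. Of the genes that passed, 36 were shared, which is 69.2% of the 52 of Cyp17a1 and 32.4% of the 111 of As3mt. All 36 had the same sign with both, and 26 lie on chromosome 19. The count on chromosome 19 was 28 to 33 for Cyp17a1 and 33 to 38 for As3mt in every alternative that kept the marker block and all probes, while the count elsewhere moved: without the 2 livers farthest from the median it was 15 and 40, and without the 15 arrays of widest SD it was 17 and 156, with the marker as the only block 15 and 53, and with the first principal component removed 44 and 115. Of the probes that passed, 26 of 85 and 77 of 200 carry no gene name, and the largest correlations of all were with such a probe, r = 0.683 for Cyp17a1 and 0.690 for As3mt.

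Col17a1, a collagen of the hemidesmosome, was the named gene most closely tied to the pair, and it ran against them. It lies 8 measured genes beyond As3mt, and its own value ran from -0.329 to 0.441 with a median of -0.00797. Its r was -0.604 with Cyp17a1 (rho -0.608, adjusted p 3.28e-27) and -0.605 with As3mt (rho -0.614, adjusted p 2.04e-27), and within the blocks it lay between -0.678 and -0.606 and between -0.680 and -0.575. For each unit of log10 Cyp17a1 the log10 ratio of Col17a1 fell by 0.205 ± 0.0157 (SE, n = 302).

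Immediate neighbours of the pair did not move as a block. Of the 15 nearest measured genes on each side, 3 had a positive and 2 a negative slope with both genes, and the other 25 did not pass with either. Cnnm2, a membrane protein of magnesium handling and the next measured gene beyond As3mt, ran from -0.296 to 0.199 with a median of -0.00107, and correlated at 0.427 with Cyp17a1 (adjusted p 1.48e-11) and 0.512 with As3mt (adjusted p 6.14e-18). Sfxn2, a mitochondrial sideroflexin and the second gene on the other side, ran from -0.389 to 0.279 with a median of 0.0195, at r = 0.465 (adjusted p 3.08e-14) and 0.483 (adjusted p 1.09e-15). Wbp1l stands between Sfxn2 and Cyp17a1 and had an r of 0.171 and 0.0672, which did not pass. Actr1a, a subunit of dynactin, was positive at 0.306 and 0.242, although its other probe gave -0.0413 and 0.0291. Pprc1, a transcriptional coactivator, was negative at -0.2997 and -0.289.

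Genes that followed the pair reached well beyond their immediate neighbours on both sides and thinned out along the lower side. Of the 40 genes nearest on the lower side 7 followed Cyp17a1, of the next 40 there were 9, of the next 5 and of the fourth 1, and 1 of all those farther out did. For As3mt the counts were 7, 12, 4 and 1, and 3 farther out. On the upper side, where 44 genes were measured, 6 of the nearest 40 followed Cyp17a1 and 7 As3mt. Positive and negative slopes stood side by side in each of these windows with over 1 such gene, except that all 4 of the third lower window were negative for As3mt.

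**Figure D4:**
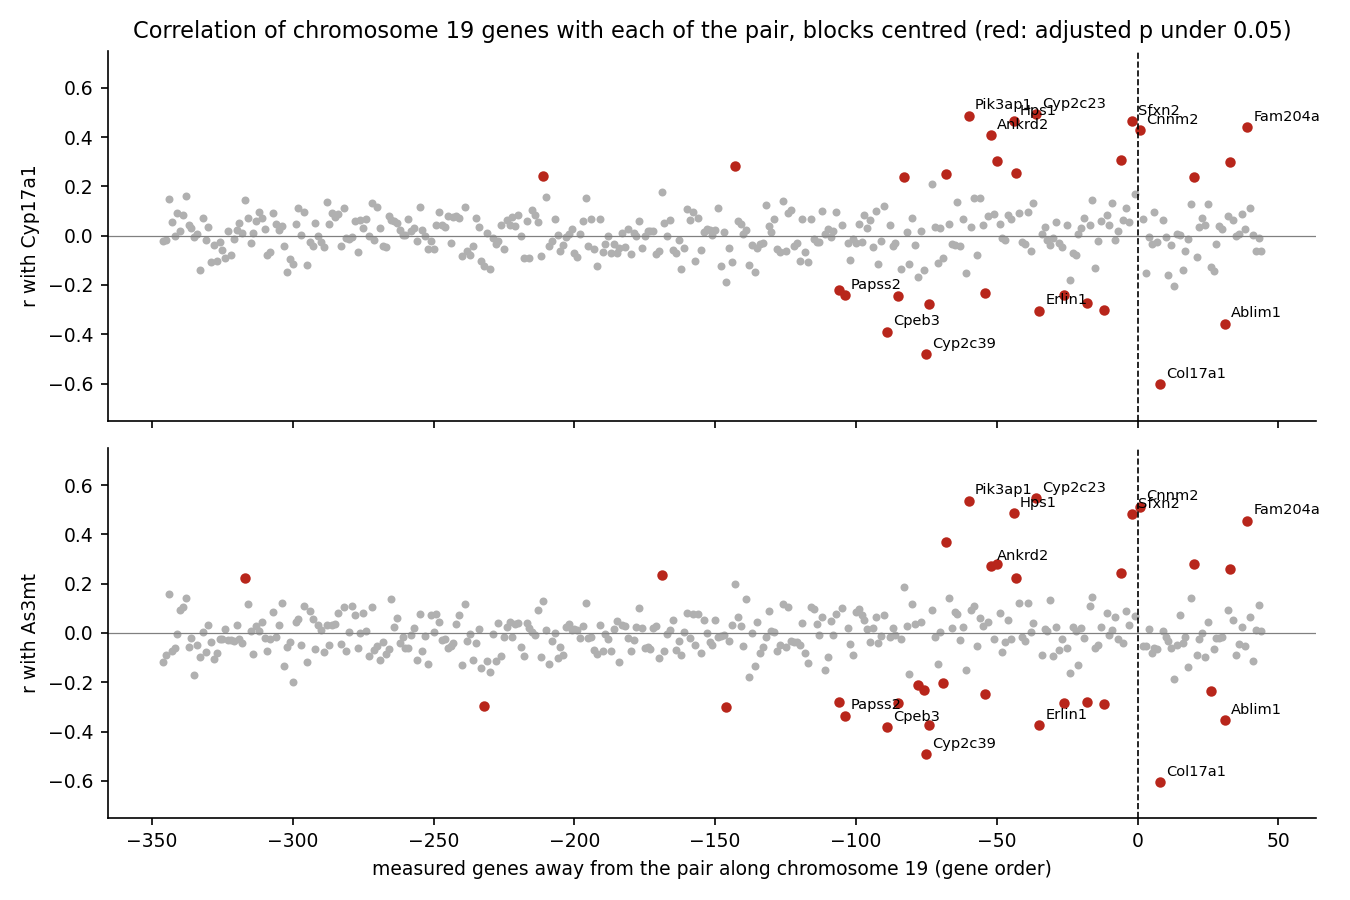
Block-centred Pearson r of each measured chromosome 19 gene with Cyp17a1 (top) and As3mt (bottom), in gene order, as the number of measured genes away from the pair (dashed line), with genes of adjusted p under 0.05 in red. Red points of both signs are densest in the 80 genes below the pair and the 40 above it, with Col17a1 at -0.604 and -0.605 the lowest point.

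Cytochrome P450 genes of the Cyp2c family were among the closest followers, in opposite directions. Cyp2c23 lies 36 measured genes below the pair, and the other 9 lie together 69 to 77 genes below it. Cyp2c23, known for epoxidation of arachidonic acid, ran from -0.906 to 0.602 with a median of -0.0300, and correlated at 0.494 with Cyp17a1 (adjusted p 2.14e-16) and at 0.547 with As3mt (adjusted p 3.07e-21). Cyp2c39, a retinoic acid hydroxylase, ran from -0.826 to 0.521 with a median of -0.0682, at r = -0.481 (adjusted p 1.70e-15) and -0.491 (adjusted p 3.10e-16). Cyp2c38 was negative at -0.277 and -0.371. Cyp2c29 at -0.232 and Cyp2c70 at -0.202 were negative with As3mt and stood at -0.140 and -0.0898 with Cyp17a1, which did not pass. Of the 13 probes for 10 Cyp2c genes, chosen after their values were seen, 2 were positive and 2 negative with Cyp17a1, and 2 were positive and 4 negative with As3mt. The 4 probes of Cyp2c40 disagreed, at r = -0.0485, 0.134, 0.211 and 0.460 with Cyp17a1, and 1 of them passed. Some of the 9 that lie together are close copies and a probe can bind RNA of several, so the split among those is uncertain. Without the marker block the r of Cyp17a1 with Cyp2c38 was 0.137, and with Cyp2c39 it was -0.00274.

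Further positive followers on chromosome 19 included Pik3ap1, an adaptor of phosphoinositide kinase (0.487 and 0.537), Hps1, a factor for lysosome-related organelles (0.465 and 0.485), and Fam204a (0.441 and 0.456). Pik3ap1 ran from -0.316 to 0.321 with a median of 0.00978, Hps1 from -0.470 to 0.2501 with a median of -0.0520, and Fam204a from -0.398 to 0.357 with a median of 0.0273. Ankrd2, an ankyrin repeat protein of muscle, reached 0.409 with Cyp17a1 and 0.272 with As3mt. Pdlim1 stood at 0.248 and 0.369, Pi4k2a, a phosphatidylinositol kinase, at 0.302 and 0.280, and Tectb, a protein of the inner ear matrix, at 0.238 and 0.281. The negative followers included Cpeb3, a regulator of mRNA translation (-0.390 and -0.382), Ablim1, an actin-binding protein (-0.357 and -0.355), Erlin1, a protein of the endoplasmic reticulum membrane (-0.304 and -0.375), Fbxw4, an F-box protein (-0.273 and -0.280), and Papss2, which makes the sulfate donor of sulfotransferases (-0.243 and -0.336). The marker block decides the sign of some: without any block r of Cyp17a1 was 0.0823 with Ablim1, 0.184 with Papss2 and -0.260 with Tectb. Away from chromosome 19 Csrnp2 (chromosome 15) was negative at -0.355 and -0.373. Adgrv1 (chromosome 13), an adhesion receptor, was negative at -0.269 and, short of the threshold, -0.198, although its other probe gave -0.0878 and -0.0839. Mmd2 (chromosome 5) was positive at 0.311 and 0.306. Susd5 (chromosome 9) stood at 0.332 and 0.271, and the olfactory receptor Olfr912 (chromosome 9) at 0.308 and, short of the threshold, 0.191. The dehydrogenases Adh4, of alcohols, and Bdh2, of hydroxybutyrate, both on chromosome 3, were negative with As3mt at -0.303 and -0.328. With Cyp17a1 Adh4 was at -0.215 (adjusted p 0.0488) and Bdh2 at -0.148 (adjusted p 0.336).

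The correlations of named genes were also tested by permuting livers within blocks, 100000 times and two-sided, over 356 correlations of 89 genes with both of the pair. Many of these genes were chosen for the size of r in the same livers, so passing this test adds no independent support and its p-values are not given. Of the 58 pairs of a gene with Cyp17a1 or As3mt that passed limma's threshold, 54 had the same sign in all 4 blocks. A slope that differed between the blocks was found for 0 of 23510 probes on Cyp17a1 (0%) and for 0 on As3mt (0%) by limma's F test, with 1316 and 1750 probes at an unadjusted p under 0.05 and smallest adjusted p of 0.184 and 0.0798. For As3mt the count was 5 without the 15 arrays of widest SD and 16 without the 2 farthest livers.

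Pathways that use either enzyme's chemistry showed little relation to the pair. Of 20 lists of genes, 18 had no gene that followed Cyp17a1 and 15 had none that followed As3mt, and their median r lay between -0.0631 and 0.0851 and between -0.0781 and 0.0944, beside medians of 0.00267 and -0.00332 over all named genes. Of 29 measured genes of steroid hormone synthesis and conversion 0 followed Cyp17a1. With As3mt, 3 of the 29 had a negative slope, beside 0.573% of all named genes: Hsd3b5 at -0.234 (adjusted p 0.0106), Hsd3b4 at -0.219 and Hsd3b2 at -0.218, 3-ketosteroid reductases or dehydrogenases that are close copies of each other. With Cyp17a1 these stood at -0.153, -0.118 and -0.137. The other probe of Hsd3b4 stood at -0.00521 with As3mt and that of Hsd3b5 at -0.112. Of 33 regulators with a reported action on Cyp17a1 transcription 0 followed either gene, and the furthest from 0 with Cyp17a1 were Stat5a at 0.128 and Srebf1 at -0.127, and with As3mt Nr0b1 at -0.153. Among 22 genes of the methionine cycle and of small-molecule methyltransferases, which supply or use the methyl donor of As3mt, Bhmt, which methylates homocysteine from betaine, was positive with both, at 0.222 (adjusted p 0.0314) and 0.251 (adjusted p 0.00390). Without any block these were -0.173 and -0.0262. Sardh, which demethylates sarcosine, was negative with As3mt at -0.207 (adjusted p 0.0412). Of 29 genes of arsenic transport, thiols and metal binding 0 followed either gene, with Abcc1 at -0.156 for Cyp17a1 and Gsta3 at -0.149 for As3mt the furthest from 0.

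Of 18 drug metabolism genes, Cyp2c38 followed Cyp17a1 and Cyp2c38, Cyp2c29 and Cyp2c70 followed As3mt, all with negative slopes. These are Cyp2c genes of chromosome 19, already given above. Over all named genes 0.259% had a negative slope on Cyp17a1, and on As3mt 0.573% a negative and 0.453% a positive one. Of 27 growth hormone dependent liver genes Hsd3b5 followed As3mt and 0 followed Cyp17a1, for which Ces3a stood at -0.187. Of 22 bile acid genes Cyp39a1, an oxysterol hydroxylase, followed As3mt at 0.202 (adjusted p 0.0498). None of the 16 genes of fatty acid oxidation, 9 of lipid droplets, 17 of sterol and fatty acid synthesis, 18 of the clock, 17 of glucocorticoid and fasting response and 14 of the acute phase followed either gene. The same held for the marker lists of hepatocytes (10 genes), steroidogenic cells of testis, ovary and adrenal (8), macrophages (15), stellate cells (10), bile duct (4), endothelium (11) and red blood cells (6).

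When the pair was placed in 1 model, so that each gene's slope was read at a fixed level of the other, many more probes passed. With As3mt held, 927 of 10813 genes had a positive slope on Cyp17a1 (8.57%) and 679 a negative one (6.28%). With Cyp17a1 held, 791 had a positive slope on As3mt (7.32%) and 1024 a negative one (9.47%). These counts moved with the settings: for Cyp17a1 they were 303 positive and 538 negative among probes with SD over the median, where the balance turned, 838 in all without the 15 arrays of widest SD and 2567 with As3mt given its own slope in each block. For As3mt the balance turned too among probes with SD over the median, to 630 positive and 409 negative. The correlations stayed modest, with 0.330 and 0.364 the largest in size. Since the pair is so closely correlated, the estimated slopes of a gene tend to oppose each other, though this is not fixed. Of the genes, 1217 passed in both, 1215 of them with opposite signs. Col17a1, at -0.251 on Cyp17a1 and -0.257 on As3mt, and Cyp2c39, at -0.170 and -0.203, passed in both with the same sign. Only 17 of the 1606 and 69 of the 1815 also passed on the gene alone. What stood out on chromosome 19 did so less here: 63 of its 390 genes passed with As3mt held (16.2%) against 14.8% elsewhere, and 73 with Cyp17a1 held (18.7%) against 16.7%.

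Macrophage markers were the list with the most genes positive for As3mt at a given Cyp17a1. Of 15 measured, 8 were positive with Cyp17a1 held, beside 7.32% of all named genes. For Cyp17a1 with As3mt held 8 were negative, beside 6.28%. The slopes on so closely correlated a pair tend to oppose each other, so the second count is not a separate result. The median r of the list was 0.156 and -0.166, beside -0.0117 and 0.0117 over all genes. Gpnmb, a gene of lipid-laden macrophages, stood at 0.255, the lysozyme Lyz2 at 0.252, the protease Ctss at 0.219 and the Kupffer cell protein Cd5l at 0.206 with Cyp17a1 held. For As3mt alone these were 0.134, 0.0874, 0.0800 and 0.0822, none past the threshold. Within each of the 4 blocks the r was above 0 for 11 of the 15, and for Lyz2 it ran from 0.101 to 0.390. The As3mt count of 8 became 4 without the 2 farthest livers, 4 with the first principal component removed and 5 on ranks, and the Cyp17a1 count of 8 became 5 without the 15 arrays of widest SD and 4 on ranks. With the other gene held, the first principal component correlated with As3mt at 0.121 and with Cyp17a1 at 0.0998 in size. In a piece of liver, fewer cells of a type and less RNA per cell cannot be told apart.

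With the other gene held, 7.32% of all named genes were positive and 9.47% negative on As3mt, and 8.57% and 6.28% on Cyp17a1. A count of 1 in a list of 10 is near these shares. Stellate cell and matrix markers had 2 of 10 genes positive on As3mt, the matrix genes Lum at 0.221 and Col1a2 at 0.212. They had 3 negative on Cyp17a1, a count that was 1 without the 15 arrays of widest SD. For As3mt 1 of the 10 was above 0 in all 4 blocks, and in the low-marker late block Lum stood at -0.00609 and Col1a2 at -0.0711. Lipid droplet genes had 4 of 9 positive on As3mt, with Fabp4 at 0.208, Plin4 at 0.191, Cidea at 0.182 and Pparg at 0.172. G0s2 at -0.115 and Cd36 at -0.0958 leaned the other way without passing, and the list's median was 0.0952. On Cyp17a1 1 lipid droplet gene was positive, G0s2 at 0.158. For As3mt 2 of the 9 were above 0 in all 4 blocks, and in the low-marker late block Fabp4 stood at -0.0858, Cidea at -0.0727 and Pparg at -0.135. Hepatocyte markers leaned the other way, with 3 of 10 positive on Cyp17a1 (Hpd 0.217, Hal 0.188 and Ass1 0.156) and 1 negative on As3mt, Hpd at -0.199. Without the 15 arrays of widest SD 1 and 0 of these passed. The endothelial list had Lyve1, a lymphatic and sinusoidal receptor, at 0.245 on As3mt, and it was the 1 negative gene on Cyp17a1, at -0.164. Stab2 leaned the other way, at -0.147 on As3mt, short of the threshold, and was the 1 positive gene on Cyp17a1, at 0.157. The medians of the endothelial list were -0.0287 on As3mt and 0.0439 on Cyp17a1. The bile duct gene Krt23 stood at 0.209 on Cyp17a1 and -0.174 on As3mt. Of the other bile duct markers, none of which passed, Krt19 leaned the same way, at 0.0794 and -0.113. Cftr leaned the other way, at -0.138 and 0.1515, and so did Epcam, at -0.106 and 0.124. The medians of the bile duct list were -0.0133 on Cyp17a1 and 0.00524 on As3mt. Of the steroidogenic cell markers 2 were positive on Cyp17a1 and 2 negative on As3mt, and 0 of 6 red cell markers passed in either fit. The part of cell mixture in these slopes was not tested.

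The counts of the remaining lists at a given level of the other gene stand beside 7.32% positive and 9.47% negative on As3mt, and 8.57% positive and 6.28% negative on Cyp17a1, over all named genes. Over all named genes the slopes on As3mt thus leaned to negative. Among probes with SD over the median the lean turned, to 630 positive and 409 negative genes, so those shares depend on the probes taken. Several counts of these lists lie near or below those shares. Steroid genes had 6 of 29 negative on As3mt, among them Hsd11b1, which regenerates active glucocorticoid, at -0.222, and 4 positive on Cyp17a1. Bile acid genes had 6 of 22 negative, with the bile salt export pump Abcb11 at -0.218, and 2 positive on Cyp17a1. Drug metabolism genes had 5 of 18 negative and growth hormone dependent genes 5 of 27, with Cyp2a5 in both lists at -0.217 and Igf1 at -0.229. The 5 of drug metabolism include Cyp2c38 at -0.259, Cyp2c70 at -0.217 and Cyp2c29 at -0.202, Cyp2c genes of chromosome 19 given above. The drug metabolism and growth hormone lists had 1 and 4 positive on Cyp17a1. The methionine list had 1 positive and 2 negative on As3mt, where Sardh at -0.292 was furthest from 0, and 3 positive and 1 negative on Cyp17a1. Arsenic handling genes had 2 of 29 negative on As3mt, below the share of all genes, the glutathione transferase Gsta3 at -0.220 and the thioredoxin Txn1 at -0.175, and 2 positive and 1 negative on Cyp17a1. Regulators of Cyp17a1 had 2 of 33 positive on As3mt and 3 negative, both below the shares of all genes, with the cAMP response factor Creb1 at 0.271 and, on Cyp17a1, -0.260, where 4 were positive and 3 negative. Fatty acid oxidation genes had 1 positive and 3 negative on As3mt and 3 positive on Cyp17a1. Sterol synthesis had Insig1 at -0.165 on As3mt, the fasting list 2 positive genes, the acute phase list 2 positive and 1 negative, and the clock list 0, and 0 genes of these 4 lists passed on Cyp17a1.

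**Figure D5:**
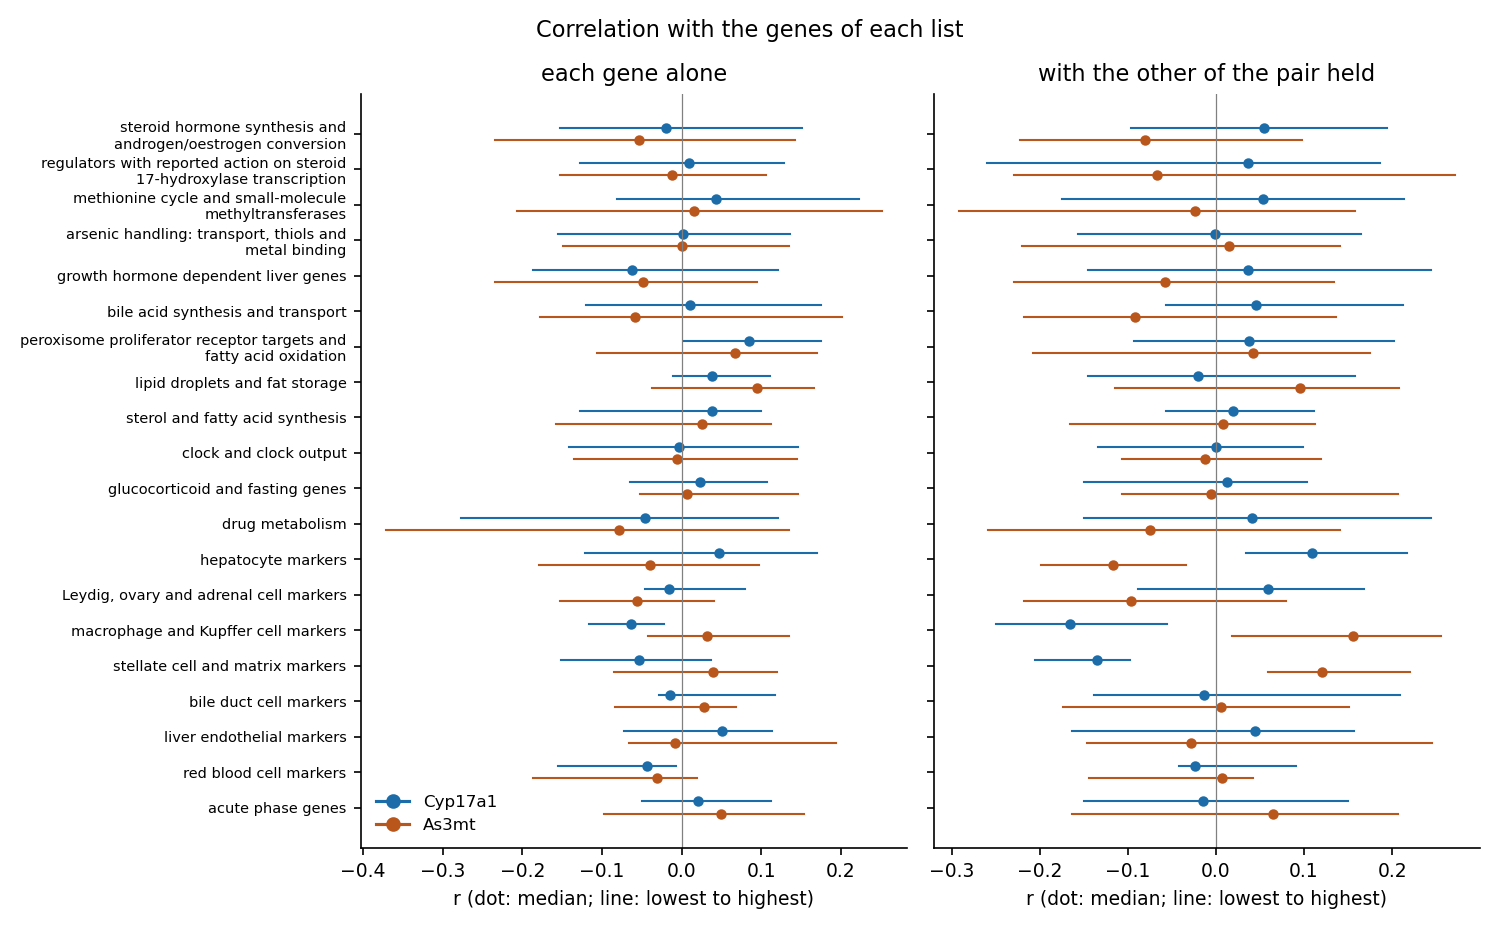
Pearson r of the genes of 20 lists with Cyp17a1 (blue) and As3mt (orange), with blocks removed, for each gene alone (left) and with the other held (right), dots for the median of a list and lines from its lowest to its highest gene. Alone the medians lie between -0.0781 and 0.0944, and with the other held the macrophage list lies at 0.156 for As3mt and -0.166 for Cyp17a1.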

How the data were processed

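The authors deposited 1 table of log ratios, read here as log10 of liver over pool, with 23562 probes and 302 arrays. How spots were read and scaled was not stated in the labels. RNA came from spin columns and was amplified with aminoallyl labelling, per the labels' protocols. Probes measured in 90% of livers or more were used without further normalization (0.0831% of values missing). Names came from an annotation table updated to GRCm38.p6: 13655 probes had 1 symbol, 48 several (not named) and 9859 none. 1 probe stood for a gene, that with fewest missing values and then the largest SD within blocks. Livers were blocked by Eif2s3y and title number. Slopes were fitted with limma 3.58.1 in R 4.3.3, Benjamini-Hochberg over 23510 probes, two-sided, and the scripts were tested on simulated data. The number of arrays limits the precision, and p-values measure the spread between mice, whose litters are not given.

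The members and lists were chosen with earlier results of these data known. Named genes were the 10 highest and 10 lowest r past the threshold for each of the pair, up to 5 called among the 15 nearest on each side, and the list genes furthest from 0; others, such as those named with one of the pair held, were chosen after their values were seen. Alternatives changed blocks, scale, arrays and probes.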

Additional observations from a re-analysis of the deposited data

How the results depend on the processing

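The blocks matter most. With no block, 10791 probes followed Cyp17a1 and 6658 As3mt, against 85 and 200, and with the title number as the only block these were 11134 and 7134. With As3mt held, the count for Cyp17a1 was 10197 and 10340, against 3416. The r of the pair was then 0.839 and 0.838, and the SD of Cyp17a1 with no block was 0.501. With no block and with the title number alone, r reversed for Cyp17a1 with Ablim1 (0.0823 and 0.0730), Bhmt (-0.173 and -0.164), Cyp2c38 (0.137 and 0.158), Papss2 (0.184 and 0.190) and Tectb (-0.260 and -0.277), for As3mt with Bhmt (-0.0262 and -0.0136) and Tectb (-0.0777 and -0.0857), and with the title number alone for Cyp17a1 with Cyp2c39 (0.00832). With the first principal component removed, 142 probes followed Cyp17a1 and 301 As3mt. Without the 15 arrays of widest SD 351 followed As3mt, the held fit of Cyp17a1 fell to 1797, and 5 probes had an As3mt slope that differed between blocks, a count that was 16 without the 2 farthest livers. Among the probes with SD over the median the held fits gave 1580 (579 positive, 1001 negative) and 2101 (1265 and 836), against 3416 (2033 and 1383) and 3973 (1714 and 2259), with fewer probes tested. On normal scores of ranks the r of the pair was 0.826. With the other gene given its own slope in each block, chosen after seeing the data, the held fit of Cyp17a1 gave 5546 probes. Other causes were not tested. Of the 58 called pairs of a gene and 1 of the pair, 53 to 58 kept their call in the settings that kept the marker block and all probes; Adh4 and Bhmt with Cyp17a1 were among those lost without the 2 farthest livers. No paired analysis was possible because the labels give 1 group.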

Other observations

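Of the genes furthest from 0 when the pair shared 1 model, those named here were chosen after their values were seen. With Cyp17a1 held, As3mt was positive with Rbm3, a cold-induced RNA-binding protein (0.322), the calcium channel Trpc1 (0.316), Pla2g7, which degrades platelet-activating factor (0.314), the lipoprotein lipase Lpl (0.306) and the asparagine synthetase Asns (0.305). It was negative with the melanin enzyme Dct (-0.364), the sodium channel Scn11a (-0.362), Bdh2 (-0.353) and Lect2, a protein secreted by hepatocytes (-0.311). All of these had an adjusted p under 0.05 with limma, and except for Bdh2 and Dct none was past the threshold for As3mt alone. With As3mt held, Cyp17a1 was positive with Ankrd2 (0.330), Scn11a (0.318) and Ceacam1, which takes part in insulin clearance (0.295).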
